A study of Saccharomyces cerevisiae with 30 samples.

Results

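Of the 6377 rows of a yeast expression array table, 115 were singled out because their evolved-to-ancestral ratio lay on one side of 0 in each of 8 evolved tetraploid lines. In 59 of these rows the evolved clone read higher than its ancestor in every line, and in 56 rows it read lower. The rows were chosen by measured values: the mean log2 ratio of the 3 arrays of each line had to exist in all 8 lines and keep 1 sign. Rows with an absolute mean of at least 1 in 2 or more lines, rows at least 1 in size in ancestral 4/ diploid and rows whose identifier begins with Q were left out. A log2 ratio of 1 is a 2-fold difference.

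The study propagated newly made tetraploid yeast of the W303 background for 1000 generations in rich medium, kept at 23°C, and asked how such cells adapt. Each evolved culture compared here was 1 clone picked for its fitness from 1 line, so a line stands for that clone and not for its population. Evolved and ancestral tetraploids carried 2 copies of each mating type allele and lacked SPO11, a gene needed for meiotic recombination, and RNA came from cultures grown at 36°C. There were 10 groups of 3 spotted arrays: evolved 1/ ancestral 1 through evolved 8/ ancestral 8, evolved 4/ diploid and ancestral 4/ diploid, where the diploid is also W303 and, as the study describes it, an ancestral clone. In each group the culture named first carried Alexa Fluor 647 and the second Alexa Fluor 555, with 0 dye swaps. A fixed dye bias of a row therefore cannot be told apart from a ratio that all lines share. The labels call the replicates technical triplicates of the RNA isolation, so p-values measure technical spread only.

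Experimental evolution uses replicate lines because a change that recurs in separate populations is less tied to the accidents of any one of them. Doubling a genome alters cell size, the ratio of surface to volume and the balance between the spindle and its chromosomes, and polyploid yeast is known to tolerate heat poorly. A transcript can differ in abundance between an ancestor and its descendant through a mutation, a changed chromosome copy number or a changed growth state, and an expression array does not separate these.

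The arrays held between 6095 and 6360 values each. Between arrays of 1 group, the lowest Pearson correlation over rows was 0.468, in line 6, and the highest of these lowest values was 0.921, in line 4. Rows are listed under systematic yeast names. The values did not bear these names out: 123 complete rows listed as ribosomal proteins, which usually move together, had a mean pairwise correlation of −0.0030 over the 30 arrays, against 0.0018 for all 5701 complete rows. Ribosomal protein genes listed as an A and a B copy made 47 pairs, of which 24 correlated above 0, with a median of 0.0148. Rows are therefore given by their listed identifier only, with no gene name or role.

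Of the 6377 rows, 6174 had a mean in all 8 lines, and 118 of those, or 1.91%, kept 1 sign. They were 60 higher and 58 lower rows. The limit on ancestral 4/ diploid removed 3 of them, and the limits on size in several lines and on identifiers removed 0. At the limit of sign, rows just inside and just outside lay close together: YCR106W entered with a line 5 mean of 0.0002 and YAL061W with 0.0003 in the same line, while YNL312W stayed out with a line 8 mean of exactly 0 and YGL141W with 0.000167 in line 6, on the side opposite to its other lines. At the limit on ancestral 4/ diploid, YJL144W entered at 0.98 and YAL051W at −0.97, while YBR297W stayed out at 1.19, YNL165W at 1.25 and YMR145C at −1.52. Membership near 0 thus turned on differences far under the spread between arrays.

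A sign shared by 8 means was not a sign shared by all arrays. A member had the sign of the rule on a median of 21 of the 24 arrays. The lowest count was 14, in YLR075W, which had a value on 21 arrays. Only 4 members kept 1 sign on all 24 arrays, and they were named after their values were seen. They were YNL284CA01, YGR271W and YDR462W among the higher rows and YLR415C among the lower rows. YBL006C, a lower row, lay below 0 on all 23 arrays where it had a value. Of the 115 members, 106 had a value on all 24 arrays of the lines, and 0 had a cell at the floor of the table.

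Sizes were small and differed by line. Averaged over the 8 lines, higher members had a median log2 ratio of 0.19, with members from 0.087 to 0.42, and lower members had −0.24, with members from −0.63 to −0.056. In lines 1 to 8, the higher members had medians of 0.096, 0.22, 0.12, 0.31, 0.19, 0.26, 0.11 and 0.17. The lower members had medians of −0.057, −0.27, −0.11, −0.51, −0.24, −0.27, −0.16 and −0.067. Line 4 was thus the farthest from 0 on both sides and line 1 the nearest.

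**Figure D1:**
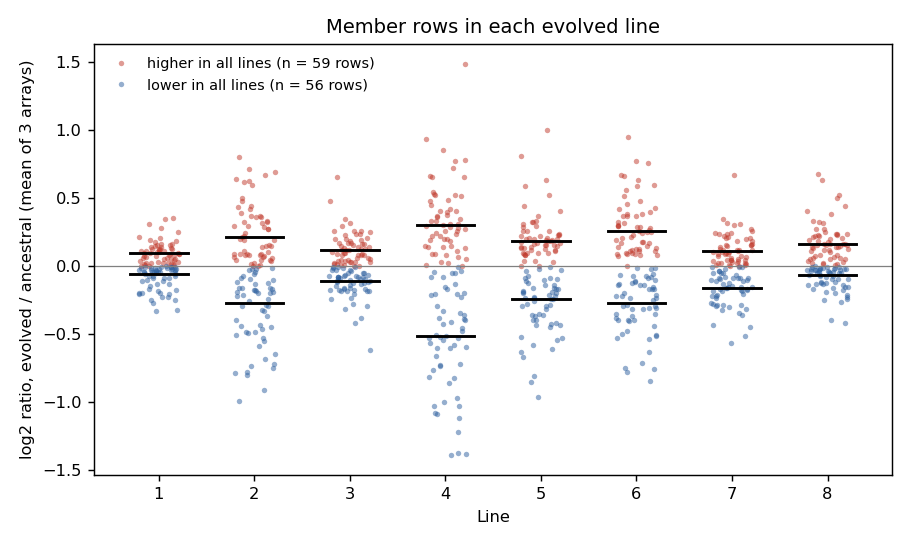
Mean log2 ratio of evolved over ancestral culture (vertical axis) for each member in each of the 8 lines (horizontal axis); each point is the mean of up to 3 arrays, and black bars are medians over the 59 higher and the 56 lower members. By the rule no point crosses 0, and the medians spread farthest in line 4 (0.31 and −0.51) and least in line 1 (0.096 and −0.057).

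The largest ratio of a member was found in line 4 for 56 of the 115, followed by line 2 (21 members), line 6 (15 members), line 5 (12 members), lines 3 and 7 (4 members each), line 8 (2 members) and line 1 (1 member). The smallest ratio lay in line 1 for 31 members, in line 8 for 22 and in line 3 for 19. A mean of at least 1 in size occurred in 11 members, 10 of them in line 4 and 1 in line 5. The members were therefore not rows that moved by like amounts in all lines.

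Lines differ in how far all their rows lie from 0, so the members' median size was set beside that of all complete rows. Members were larger in line 4 (0.380 against 0.311), line 6 (0.258 against 0.165), line 2 (0.242 against 0.191) and line 5 (0.207 against 0.167). They were close to all complete rows in line 8 (0.125 against 0.117) and line 7 (0.131 against 0.135). In line 3 the members were smaller than complete rows, with 0.115 against 0.157, and in line 1 they were about 0.506 times as large, with 0.0841 against 0.166. These are descriptions of values that the rule used.

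The sign of the members in line 1 rested largely on 1 array. On replicates 1, 2 and 3 of line 1, the lower members had medians of −0.30, 0.018 and 0.0056, and the higher members 0.20, 0.081 and 0.044. The sign of the rule was held by 93 of 115 members on replicate 1, by 61 of 108 on replicate 2 and by 67 of 115 on replicate 3. In every other line, each array had at least 84 members on the side of the rule. All 3 arrays agreed in sign for 23 members in line 1, against 70 to 102 members in the other lines. Leaving out line 1 replicate 1 gave 102 rows under the same rule, of which 72 were among the 115.

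**Figure D2:**
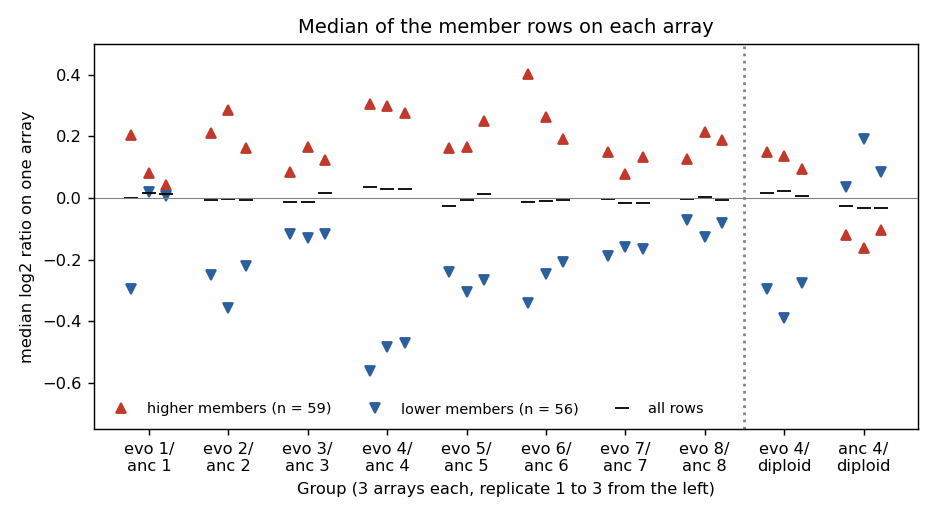
Median log2 ratio on each of the 30 arrays (vertical axis) of the higher members (upward triangles), the lower members (downward triangles) and all rows (dashes), by group (horizontal axis, replicates 1 to 3 from the left in each group). Right of the dotted line are the arrays against the diploid, where the medians keep the signs of the rule in evolved 4/ diploid and have the opposite signs in ancestral 4/ diploid; on line 1 replicates 2 and 3 the lower members sit at 0.018 and 0.0056.

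Line 1 was also the line that most often broke a common sign. In 993 rows, 7 lines lay on 1 side of 0 and 1 on the other, and the odd line was line 1 in 546 of them. The next were line 3 with 163 rows and line 8 with 91, then line 7 with 86 and line 4 with 50, and last line 2 with 29, line 5 with 16 and line 6 with 12. Over all 6174 complete rows, line 1 had a Pearson correlation of −0.70 with line 3 and −0.35 with line 4. Because the labels state the dye of each channel for every array, line 1 was used in its deposited direction. With its sign turned, 512 rows met the rule and 0 of them were among the 115, since a row cannot keep 1 sign both ways.

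Each line was then left out in turn and its sign read in rows that had 1 sign in the other 7, without the size limits. Line 1 had the sign of the others in 17.8% of 664 such rows. For lines 2 to 8, the shares were 80.3% of 147 rows, 42.0% of 281, 70.2% of 168, 88.1% of 134, 90.8% of 130, 57.8% of 204 and 56.5% of 209. Over all complete rows, the share with the sign of the mean of the other 7 lines was 36.5%, 68.3%, 59.2%, 63.8%, 71.6%, 68.5%, 59.9% and 53.6% for lines 1 to 8. Lines 2, 4, 5, 6 and 8 thus had the common sign more often in the rows chosen on the other 7 lines than in all rows, and lines 1, 3 and 7 less often, with no test made of these differences. The 118 rows of one sign are the same rows in each of these shares.

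**Figure D3:**
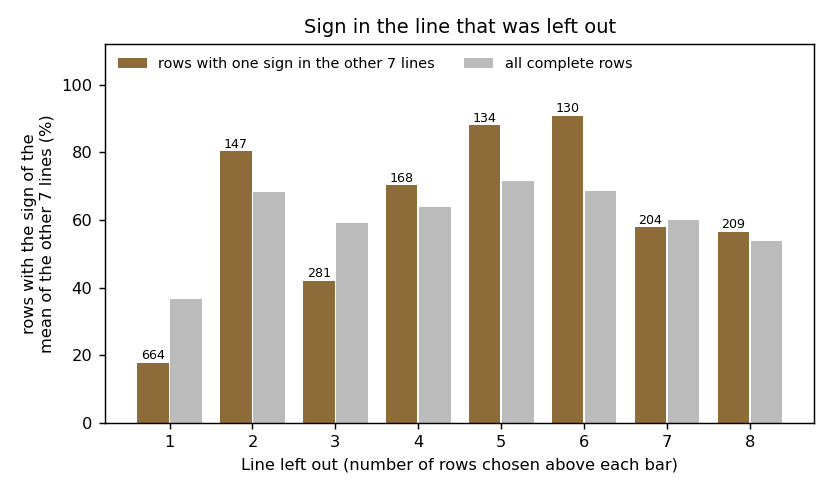
Share of rows (vertical axis, percent) whose sign in the line left out (horizontal axis) is that of the other 7 lines, for rows with 1 sign in those 7 (brown, number of rows above each bar) and for all complete rows by the sign of the mean of the other 7 lines (grey). The brown bar is highest for line 6 at 90.8% and lowest for line 1 at 17.8%.

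Members that were large in one line were not always large in another. Over the 59 higher members, Pearson correlations between pairs of lines had a median of 0.080 and ran from −0.29, between lines 1 and 2, to 0.56, between lines 6 and 8. Over the 56 lower members the median was 0.27, from −0.22 between lines 1 and 7 to 0.79 between lines 2 and 6. Over all complete rows it was 0.20, from −0.70 to 0.75. All pairs come from the same dye orientation and the same rows, and rows are not independent replicates.

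The 5 highest members by their mean over the lines were YLR075W, YAL055W, YMR122C, YAL051W and YJL144W. YAL055W averaged 0.40 ± 0.49 (SD, n = 8 lines), with 0.083, 0.72, 0.19, 1.49, 0.17, 0.29, 0.091 and 0.15 in lines 1 to 8. Line 4 stood apart there, with its lowest array at 1.37, and the arrays of the other lines ran from −0.0042 to 0.86. YMR122C averaged 0.38 ± 0.31 (SD, n = 8 lines) and was high in line 2 at 0.80, line 4 at 0.78 and line 6 at 0.60, with line 1 at 0.012. YAL051W averaged 0.36 ± 0.32 (SD, n = 8 lines), with 0.85 in line 4, 0.81 in line 5 and 0.45 in line 6. Its line 6 mean covered arrays at 0.96, 0.88 and −0.48. YJL144W averaged 0.35 ± 0.26 (SD, n = 8 lines), with 0.76 in line 6, 0.67 in line 2 and 0.53 in line 8.

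YLR075W had the highest mean of all members, 0.42 ± 0.41 (SD, n = 8 lines), and its arrays disagreed in sign in several lines. Its line 6 arrays read 1.33, 2.34 and −0.82, its line 2 arrays −0.70, 0.82 and −0.073, and line 7 rested on 1 array at 0.12. It had the sign of the rule on 14 of the 21 arrays where it had a value, the lowest count of all members. The next lowest count was that of YKR040C, with 15 of 24. Its place in the list rests on means whose arrays disagreed in sign.

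The 5 lowest members were YKR101W, YHR110W, YBR160W, YLR415C and YLR031W. YKR101W averaged −0.63 ± 0.43 (SD, n = 8 lines), with −0.084, −0.73, −0.42, −1.37, −0.96, −0.78, −0.56 and −0.12 in lines 1 to 8. Its arrays were tight within a line, as in line 4 with −1.47, −1.38 and −1.25 and line 5 with −1.01, −0.93 and −0.95, and 23 arrays lay below 0. Line 1 was the exception, with −0.077, −0.41 and 0.24. YHR110W averaged −0.52 ± 0.43, YBR160W −0.49 ± 0.38, YLR415C −0.48 ± 0.30 and YLR031W −0.46 ± 0.36 (SD, n = 8 lines each). In YHR110W, YBR160W and YLR415C line 4 held the lowest value, at −1.38, −0.9997 and −1.08, and in YLR031W line 2 did, at −0.91.

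YLR415C was below 0 on all 24 arrays. Its line means were −0.18 ± 0.15, −0.58 ± 0.017, −0.12 ± 0.089, −1.08 ± 0.024, −0.53 ± 0.26, −0.53 ± 0.037, −0.36 ± 0.062 and −0.42 ± 0.093 in lines 1 to 8 (SD, n = 3 arrays each). Its array nearest 0 was −0.026, in line 3. YGR271W was above 0 on all 24 arrays with line means of 0.12, 0.43, 0.24, 0.40, 0.15, 0.27, 0.11 and 0.13, and its array nearest 0 was 0.0091, in line 7. YDR462W had its largest means in lines 5, 6 and 7, at 0.53, 0.66 and 0.67, and a line 4 mean of 0.090. YNL284CA01 was largest in line 2 at 0.32 and in line 6 at 0.23, and near 0 in line 3 at 0.016. In these last 2 rows the line of the largest ratios was thus not line 4.

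The 3 members whose smallest line was farthest from 0 were YER085C, YLR415C and YBR134W. YER085C had nearly one value in all lines, with −0.20, −0.12, −0.23, −0.17, −0.22, −0.21, −0.18 and −0.17 in lines 1 to 8 and a mean of −0.19 ± 0.04 (SD, n = 8 lines). Its arrays were less even, from −0.60 in line 5 to 0.018 in line 1. YBR134W ran from 0.12 in line 3 to 0.52 in line 6, and was also high in line 8 at 0.50 and line 4 at 0.48. YER085C and YBR134W thus differed in how even the lines were, although both lay more than 0.1 from 0 in every line.

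**Figure D4:**
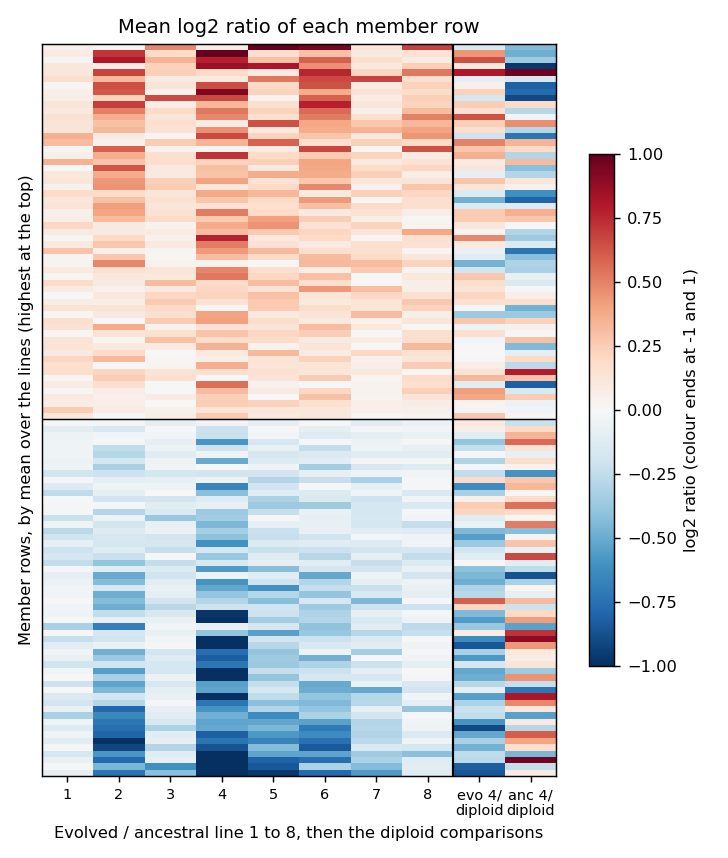
Mean log2 ratio of every member (rows, ordered by the mean over the 8 lines, highest at the top) in lines 1 to 8, evolved 4/ diploid and ancestral 4/ diploid (columns); colour runs from −1 (dark blue) to 1 (dark red), and values beyond that have the end colour. Line 4 holds the darkest cells on both sides, line 1 is pale throughout, and the diploid columns hold both colours above and below the black line.

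The arrays against the diploid were not averaged by the rule, apart from its limit on ancestral 4/ diploid. They asked how the members stood in evolved 4 and in its ancestor, each relative to a diploid. In evolved 4/ diploid, the higher members had a median log2 ratio of 0.11, with quartiles of −0.036 and 0.27, and the lower members −0.31, with quartiles of −0.49 and −0.10. All rows had a median of 0.016. In ancestral 4/ diploid, the higher members had a median of −0.14 and the lower members 0.11, and all rows −0.031. Of the 59 higher members, 41 lay above 0 in evolved 4/ diploid and 21 in ancestral 4/ diploid. Of the 56 lower members, 46 lay below 0 in evolved 4/ diploid and 19 in ancestral 4/ diploid. The medians thus had opposite signs in the 2 comparisons, while many single members did not.

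The medians did so on each array. The higher members had medians of 0.15, 0.14 and 0.093 on the 3 evolved 4/ diploid arrays, and −0.12, −0.16 and −0.10 on the 3 ancestral 4/ diploid arrays. The lower members had −0.30, −0.39 and −0.28 on the evolved 4/ diploid arrays, and 0.035, 0.19 and 0.086 on the ancestral 4/ diploid arrays. The array medians of evolved 4/ diploid and ancestral 4/ diploid did not overlap for either set. Those of all rows did not overlap either, with the signs of the higher members. They were 0.015, 0.025 and 0.008 in evolved 4/ diploid, against −0.024, −0.032 and −0.031 in ancestral 4/ diploid. A lack of overlap was thus not particular to the members. Evolved 4 and ancestral 4 are also compared in line 4 itself, whose sign the rule used, and whether the same RNA was used is not stated.

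Calls were made with limma and Benjamini-Hochberg adjustment over all rows tested. The SE of a limma estimate draws on the spread within all 10 groups, and n gives the arrays of the groups compared. With an adjusted p under 0.05 and a size of at least 1 in evolved 4/ diploid, 0 of 115 members were called, where 0.771% of all 6225 rows tested were called higher and 0.514% lower. With the adjusted p alone, 65 members passed in either direction, or 56.5%, where 51.5% of all rows did. Among higher members 20 of 59 passed above 0, or 33.9%, where 26.9% of all rows did, and 4 passed below 0, or 6.78%, where 24.6% of all rows did. Among lower members 37 of 56 passed below 0, or 66.1%, beside the same 24.6%, and 4 passed above 0, or 7.14%, beside 26.9%. The lower members thus passed on the side of the rule more often than all rows did, and the higher members at a share nearer to the background. The sign of evolved 4 over ancestral 4 was part of the rule, so evolved 4/ diploid is not free of the choice of rows. All rows were not chosen in that way, and a lean to the side of the rule is therefore partly built in.

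In ancestral 4/ diploid, 76 of 114 members passed the adjusted p in either direction, or 66.7%, where 65.3% of all rows did, and rows at least 1 in size were removed by the rule. Of the higher members 14 of 59 passed above 0 and 26 below 0, or 23.7% and 44.1%, where 29.7% of all 6145 rows tested passed above 0 and 35.6% below. Of the lower members 23 of 55 passed above 0 and 13 below 0, or 41.8% and 23.6%, beside the same background. YEL068C had too few values to be tested.

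The difference, evolved 4/ diploid minus ancestral 4/ diploid, sets evolved 4 against its ancestor through the diploid, and the shared dye orientation cancels in it. It shares no array with line 4, although it concerns the same pair of clones, whose direct ratio chose the rows. Its median was 0.16 over the higher members, from −0.64 to 1.06, −0.33 over the lower members, from −1.53 to 0.63, and 0.052 over all rows. The median size was 0.229 over the higher members and 0.420 over the lower members, and 0.324 over all rows.

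**Figure D5:**
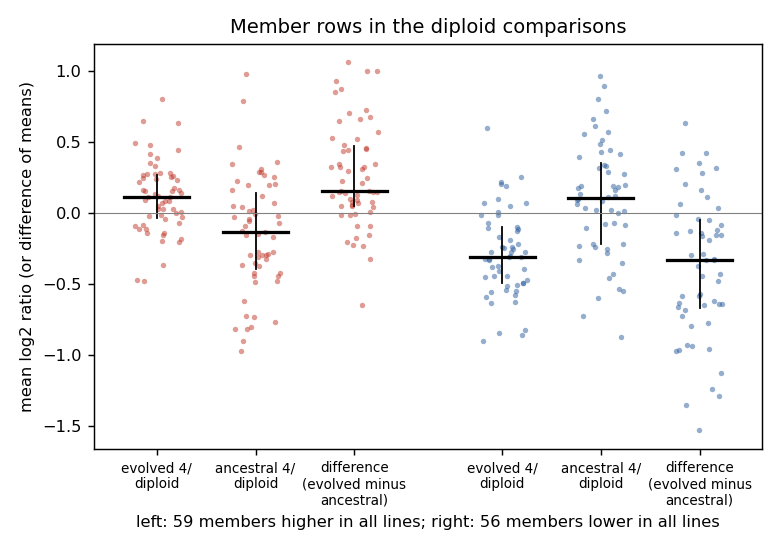
Mean log2 ratio in evolved 4/ diploid and ancestral 4/ diploid, and their difference (vertical axis), for each of the 59 higher members (left, red) and the 56 lower members (right, blue); horizontal bars are medians and vertical lines run between the quartiles over members. The difference has a median of 0.16 in higher members and −0.33 in lower members, and points lie on both sides of 0 in every column.

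By the adjusted p, 67 of 114 members tested passed in the difference in either direction, or 58.8%, a share near the 57.1% of all rows that did. Among higher members 26 of 59 rose and 2 fell, or 44.1% and 3.39%, where 31.9% of all 6135 rows tested passed above 0 and 25.2% below. Among lower members 33 of 55 fell and 6 rose, or 60% and 10.9%, beside the same 25.2% and 31.9%. With a size of at least 1 as well, 3 higher members were called above 0, or 5.08%, where 4.04% of all rows were, and 5 lower members were called below 0, or 9.09%, where 2.9% were. Thus 8 members passed both thresholds, all on the side of the rule. After quantile normalization 4 did, 0 above 0 and 4 below 0, and after centring each array 9 did, 1 above 0 and 8 below 0. By the unadjusted form of the methods' t-test 4 did, 1 above 0 and 3 below 0. The sign of the same pair in line 4 chose the members, so a lean to the side of the rule is partly built in here too. All rows were not chosen in that way. They also include rows at least 1 in size in ancestral 4/ diploid, which the rule removed from the members.

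The 5 lower members called were YOR057W, YHL034C, YIL050W, YBR160W and YDR382W. YOR057W read −0.77, −0.74 and −0.38 in evolved 4/ diploid, against 0.73, 0.90 and 1.05 in ancestral 4/ diploid. The groups did not overlap, and the difference was −1.53 ± 0.17 (SE, n = 3 arrays each, adjusted p = 7.45e-08 by limma). YHL034C read −0.53, −0.39 and −0.71 in evolved 4/ diploid, against 0.64, 1.04 and 0.74 in ancestral 4/ diploid, a difference of −1.35 ± 0.14 (SE, n = 3 arrays each, adjusted p = 1.97e-08 by limma). YIL050W read −0.81, −1.12 and −0.63 in evolved 4/ diploid, against 0.23, 0.59 and 0.48 in ancestral 4/ diploid, a difference of −1.29 ± 0.12 (SE, n = 3 arrays each, adjusted p = 5.49e-09 by limma). In these 3 rows every evolved 4 array lay below 0 and every ancestral 4 array above it.

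The same 3 rows were far lower in line 4 than in any other line. There they had means of −1.12, −1.08 and −1.39, in the order YOR057W, YHL034C and YIL050W. In the other 7 lines YOR057W ran from −0.23 to −0.0045, YHL034C from −0.39 to −0.026 and YIL050W from −0.27 to −0.0081. YOR057W and YIL050W had the sign of the rule on 18 arrays each and YHL034C on 21.

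YBR160W and YDR382W were low in several lines. YBR160W read −0.30, −0.21 and −0.30 in evolved 4/ diploid, against 0.78, 1.21 and 0.90 in ancestral 4/ diploid, a difference of −1.24 ± 0.14 (SE, n = 3 arrays each, adjusted p = 6.37e-08 by limma). YDR382W read −0.61, −0.51 and −0.41 in evolved 4/ diploid, against 0.49, 0.86 and 0.48 in ancestral 4/ diploid, a difference of −1.12 ± 0.12 (SE, n = 3 arrays each, adjusted p = 4.28e-08 by limma). In the lines, YBR160W had means of −0.77, −0.9997, −0.81 and −0.76 in lines 2, 4, 5 and 6, and YDR382W −0.80, −0.81, −0.58 and −0.63. The other lines of both rows lay between −0.31 and −0.039.

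The 3 higher members called were YAL051W, YAL056W and YMR122C. YAL051W read 0.03, 0.31 and −0.06 in evolved 4/ diploid, against −0.99, −0.92 and −0.99 in ancestral 4/ diploid, a difference of 1.06 ± 0.24 (SE, n = 3 arrays each, adjusted p = 0.000497 by limma). YAL056W read 0.23, 0.34 and 0.12 in evolved 4/ diploid, against −0.50, −0.83 and −0.98 in ancestral 4/ diploid, a difference of 1.00 ± 0.11 (SE, n = 3 arrays each, adjusted p = 2.73e-08 by limma). YMR122C read 0.61, 0.73 and 0.60 in evolved 4/ diploid, against −0.20, −0.47 and −0.39 in ancestral 4/ diploid, a difference of 1.00 ± 0.092 (SE, n = 3 arrays each, adjusted p = 3.77e-09 by limma). The last 2 differences lay at the limit of size. Without evolved 4/ diploid replicate 2, 0 members were called above 0.

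Members with the largest ratios in the lines differed in how they stood against the diploid. YKR101W read −0.91, −0.84 and −0.78 in evolved 4/ diploid, against −0.02, 0.23 and 0.04 in ancestral 4/ diploid. Its difference was −0.93 ± 0.11 (SE, n = 3 arrays each, adjusted p = 8.5e-08 by limma), just under the limit of size. YAL055W read 0.46, 0.52 and 0.35 in evolved 4/ diploid, against −0.33, −0.82 and −0.30 in ancestral 4/ diploid, with a difference of 0.93 ± 0.10 (SE, n = 3 arrays each, adjusted p = 4.67e-08 by limma). YKR101W was thus low in evolved 4 with its ancestor near the diploid, while YAL055W lay on opposite sides of the diploid in the 2 cultures.

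YNL058C had the lowest mean of all members in evolved 4/ diploid, at −0.90, against −0.28 in ancestral 4/ diploid, and a difference of −0.62 ± 0.17 (SE, n = 3 arrays each, adjusted p = 0.00381 by limma). YHR110W was at −0.82 in evolved 4/ diploid and −0.24 in ancestral 4/ diploid, with a difference of −0.58 ± 0.19 (SE, n = 3 arrays each, adjusted p = 0.0129 by limma). YLR031W was at −0.47 in evolved 4/ diploid and 0.17 in ancestral 4/ diploid, with a difference of −0.63 ± 0.13 (SE, n = 3 arrays each, adjusted p = 0.000166 by limma). All of these lower rows fell on the side of the rule. Among higher rows, YBR134W was at 0.63 in evolved 4/ diploid against −0.04 in ancestral 4/ diploid, with a difference of 0.68 ± 0.13 (SE, n = 3 arrays each, adjusted p = 7.67e-05 by limma). YJL223C was at −0.18 in evolved 4/ diploid and −0.90 in ancestral 4/ diploid, with a difference of 0.72 ± 0.20 (SE, n = 3 arrays each, adjusted p = 0.00324 by limma).

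Other members did not keep the sign of the rule in the difference. YLR415C, below 0 on all 24 arrays of the lines, read −0.17, −0.39 and −0.20 in evolved 4/ diploid, against −0.61, −0.18 and −0.57 in ancestral 4/ diploid. The groups overlapped, and the difference was 0.20 ± 0.11 (SE, n = 3 arrays each, adjusted p = 0.122 by limma), while its direct line 4 ratio was −1.08. YMR193W, a lower row with a line 4 mean of −0.05, was at −0.45 in evolved 4/ diploid and −0.87 in ancestral 4/ diploid. It rose in the difference, by 0.42 ± 0.090 (SE, n = 3 arrays each, adjusted p = 0.00031 by limma). YJL144W was above the diploid in both cultures, at 0.80 in evolved 4 and 0.98 in ancestral 4, and its difference was −0.18 ± 0.19 (SE, n = 3 arrays each, adjusted p = 0.454 by limma).

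Of the 3 higher rows above 0 on all 24 arrays of the lines, none passed the adjusted p in the difference by limma. YGR271W had a difference of 0.16 ± 0.083 (adjusted p = 0.111), YDR462W of 0.07 ± 0.082 (adjusted p = 0.46) and YNL284CA01 of −0.21 ± 0.12 (adjusted p = 0.133; SE, n = 3 arrays each, limma). YBL006C, below 0 on all 23 arrays of the lines where it had a value, passed with a difference of −0.29 ± 0.11 (SE, n = 3 arrays each, adjusted p = 0.0231 by limma). YER085C, the row with the most even lines, had −0.12 ± 0.14 (SE, n = 3 arrays each, adjusted p = 0.505 by limma). YLR075W had 0.29 ± 0.54 (SE, n = 3 arrays each, adjusted p = 0.668 by limma). That SE includes the spread of its line arrays. Its own arrays against the diploid had SDs of 0.035 in evolved 4/ diploid and 0.30 in ancestral 4/ diploid. The rows steadiest in sign over the lines were thus not those with the largest difference through the diploid.

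The listed identifiers, which the values did not bear out, gave these counts. Lists of ribosomal proteins, ribosome biogenesis factors, chaperones, proteasome subunits, oxidative phosphorylation, stress and reserve carbohydrate genes, histones and the TORC1 and Sch9 branch held 353 complete rows, of which 2 were higher and 2 lower members. They were 1 higher and 1 lower member of 128 rows listed as ribosomal proteins, 1 lower member of 67 listed as biogenesis factors and 1 higher member of 60 listed as oxidative phosphorylation genes. The other 5 lists, of 8 to 33 rows, held 0 members. Of all 6174 complete rows, 1.91% kept 1 sign and 115 were members, a share at which short lists would hold few members or none. No test was made of these counts.

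By listed chromosome, the 479 complete rows of XVI held 10 higher and 0 lower members, and the 107 of I held 6 higher and 0 lower. All complete rows of XVI and I had a median line mean of 0.057 and 0.044, and the medians of the other 14 chromosomes lay between −0.015 and 0.020. XIV held 9 higher and 2 lower members of 406 complete rows, while XII held 4 higher and 9 lower of 540. V held 2 higher and 6 lower of 288, and XI 1 higher and 5 lower of 330. Counts were even in IV and XV, with 4 higher and 4 lower members each, of 808 and 561 complete rows. Over all 6174 complete rows 115 were members, and no test was made of these counts. Chromosome VI held 0 members of 130 complete rows. Members fell on both listed strands, with 28 of 59 higher and 30 of 56 lower members listed on the C strand, beside 49.6% of complete rows. Within the listed order, 3 pairs of members stood at most 2 rows apart, YAL055W with YAL056W, YLR336C with YLR337C and YNL171C with YNL173C, and each pair had 1 direction.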

How the data were processed

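Total RNA from pairs of cultures was hybridised by the authors to spotted yeast oligonucleotide arrays. The deposited values are log2 ratios of channel 1 (Alexa Fluor 647) over channel 2 (Alexa Fluor 555), which the authors made in GeneSpring GX with LOWESS within each array, leaving out spots of intensity under 500. The table held 3053 empty cells, and whether these are the spots left out was not tested. Another 84 cells at −6.64 were treated as a floor and set to missing, the next lowest value being −5.73. Scanner intensities were not used here, so signal over background is unknown, and the number of arrays limits the precision.

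Groups came from the sample titles. Means were rounded to 10 decimals, which keeps the mean of exactly 0 in YNL312W from taking a sign; 15 complete rows had a line mean of exactly 0. The members and lists were chosen with earlier results of these data known. All 30 arrays were fitted with 1 mean per group in limma 3.58.1 (R 4.3.3; lmFit and eBayes), with Benjamini-Hochberg adjustment over all rows with values on at least 2 of 3 arrays. Python 3.11.15 (pandas 2.3.3, numpy 2.4.6, scipy 1.17.1) served for the other values and matplotlib 3.10.9 for the figures.

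On simulated data, a change of 1.5 on the log2 scale was recovered in 100% of 95 rows in evolved 4/ diploid and 100% of 92 in the difference. A change of 0.3 was recovered in 79.2% of 96 and 48.9% of 94. Among rows given no change, 10 falsely passed the adjusted p in evolved 4/ diploid and 8 in the difference, where 6225 and 6135 rows were tested in all. The simulated noise was independent between arrays, with 1 SD per row, and few rows were changed. In the deposited arrays 51.5% of rows passed in evolved 4/ diploid and 57.1% in the difference. These rates therefore describe the simulated setting and not the error of the calls made here.

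Rows named were the 5 highest and 5 lowest members over the lines, the 3 with the largest smallest-line size, the 3 highest and 3 lowest in evolved 4/ diploid, in ancestral 4/ diploid and in their difference, the members called, and the rows at each limit. Rows with 1 sign on all 24 arrays, and YBL006C with 1 sign on all 23 of its values in the lines, were added after seeing the values. Identifiers were matched to locus tags of the RefSeq annotation, with 5840 matched and 537 not.

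Alternatives were other scalings and filters, the floor kept, the median of the 3 arrays, only the diploid comparisons in the fit, a replicate block, a robust variance prior, the methods' t-test (the test behind the 2-fold and p of 0.005 threshold of the methods, which do not name it) and each replicate left out. Turning or leaving out line 1, and leaving out single arrays of the lines, were added after seeing the data.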

Additional observations from a re-analysis of the deposited data

Results flagged for a closer look

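Of 28 measures examined over the 8 lines, 6 had 1 line standing apart from the rest by Dixon's ratio, the gap to the nearest line divided by the whole range, above the critical value of 0.526. Chance flags about 1 in 20 groups that were not chosen on their values. The members are rows chosen on these values, and no explanation was tested.

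The median of the lower members had a ratio of 0.5346 with line 4 apart, at −0.51 beside −0.27 to −0.057 in the other lines. The number of members with all 3 arrays of one sign had a ratio of 0.5949 with line 1 apart, at 23 beside 70 to 102. Line 4 also stood apart in YAL055W (0.5503), at 1.49, in YHL034C (0.6521), at −1.08, in YIL050W (0.8076), at −1.39, and in YOR057W (0.7985), at −1.12. YHL034C, YIL050W and YOR057W were named in part for their difference between evolved 4 and ancestral 4. Line 4 compares the same pair, so its standing apart in these rows is partly built in.

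Evolved 4 and ancestral 4 differed in their ratio to the diploid by a test of the difference itself. By limma, 67 of 114 members tested passed the adjusted p, or 58.8%, near the 57.1% of all rows that did, so passing was not particular to the members. With a size of at least 1 as well, 8 were called. They were 5.08% of higher members above 0, beside 4.04% of all rows, and 9.09% of lower members below 0, beside 2.9%. The sign of the same pair in line 4 chose the members, so that side is partly built in.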

How the results depend on the processing

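The 8 results were recomputed 121 times in all, and 111 values stayed within 1.5 times or within the spread, 10 moved and 0 reversed. With the sign of line 1 turned 512 rows met the rule, and with line 1 left out of it 628 did, all 115 members among them, since a rule on fewer lines takes in more rows. Quantile normalization gave 4 members called in the difference, 0 above 0 and 4 below 0. Centring each array gave 9, 1 above 0 and 8 below 0, beside 3 and 5. Past the adjusted p in the difference were 32 members above 0 and 35 below 0, of either set, beside 17 and 31 after quantile normalization. The methods' t-test, unadjusted, gave 4 called in the difference, and 10, 13 and 18 members past its threshold in ancestral 4/ diploid, evolved 4/ diploid and the difference. After Benjamini-Hochberg it gave 7, 13 and 33. The cause of these moves was not tested.

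Leaving out replicates gave 97 to 146 members, with 54 to 66 of the 115 kept when a replicate number was left out of all lines and 72 to 115 when 1 array was. The median of the 3 arrays gave 103 members, 67 of them shared. The median over the lines ran from 0.20 to 0.22 in higher and from −0.27 to −0.21 in lower members. Members past the adjusted p numbered 52 to 61 in evolved 4/ diploid, 62 to 68 in ancestral 4/ diploid and 58 to 65 in the difference, with 0 called in evolved 4/ diploid throughout and 6 to 10 in the difference.

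Replicate numbers did not pair the arrays on average: deviations of same-numbered arrays had a mean correlation of 0.0019 over 135 pairs, beside −0.0012 over 270 pairs of different number. Single pairs ran from −0.52 to 0.58 at the same number and from −0.69 to 0.68 at different numbers. Deviations of single arrays from different groups were thus not unrelated, and the cause was not tested. With a replicate block, 65 members passed in evolved 4/ diploid with 0 called, 75 in ancestral 4/ diploid, and 67 in the difference with 8 called.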
